A study of Mus musculus with 24 samples.

Results

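Collagen chains, proteoglycans and matrix glycoproteins were followed in mouse embryonic fibroblasts (MEFs) that had lost E4F1, a zinc finger transcription factor. The set was every collagen chain symbol in the authors' 6 deposited lists of changed probes, together with 20 named matrix genes. It came to 18 genes out of the 3667 named in those lists: Bgn, Dcn, Lum, Fn1, Tnc, Thbs1, Postn, Mgp, Fbln1, Fbln2, Col1a1, Col3a1, Col4a1, Col4a5, Col6a1, Col6a2, Col8a1 and Col12a1. The other 10 named genes, Fbn1, Fbn2, Eln, Sparc, Vcan, Fmod, Ogn, Thbs2, Fbln5 and Lox, were not analysed here. All 18 genes stand in the authors' 5% SAM list for E4F1 loss in Ha-RasV12 cells and 3 of them, Dcn, Fn1 and Lum, also in the lists for p53-/- cells. The response to E4F1 loss in Ha-RasV12 cells therefore chose which genes could be named. Its counts over the 18 genes are given as a description.

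The 4 groups were p53-/-, Ha-RasV12 MEFs with genotype E4F1 -/- (Ras knockout), p53-/-, Ha-RasV12 MEFs with E4F1 +/- (Ras control), p53-/- MEFs with E4F1 -/- (p53-/- knockout), and p53-/- MEFs with E4F1 +/- (p53-/- control). All came from 13.5-day embryos on a mixed C57BL/6 and 129Sv/J background, all lacked p53, and RNA was taken 3 days after a retrovirus delivered a self-excising CRE recombinase. The controls had also received CRE and kept 1 E4f1 allele. Each group had 3 replicates, A, B and C, and each replicate was hybridised on 2 two-colour arrays with the dyes exchanged, knockout against control on the same arrays, so that 12 arrays gave 24 samples and 12 replicate means. The cells of each group are a culture, in which fewer cells of a type and less RNA per cell cannot be told apart.

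Fibroblasts build the extracellular matrix, a secreted network that gives connective tissue its strength and signals back to the cells through integrins and other receptors. Fibrillar collagens form the cables, basement membrane collagens form sheets, and small leucine-rich proteoglycans such as biglycan, decorin and lumican bind collagen and set how its fibrils assemble. Fibronectin links cells to collagen, fibulins belong to elastic fibres and basement membranes, and the matricellular proteins (thrombospondin-1, tenascin-C, periostin) adjust adhesion more than they bear load. Loss of fibronectin and collagen from the surface of oncogenically transformed fibroblasts is a classical observation of cell biology.

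Values are log2 intensities of a gene's probe of highest mean signal over all samples, averaged over both dyes. A gene was called changed at a Benjamini-Hochberg adjusted p under 0.05 from limma over all 132488 probes. The array's random-sequence probes had a 95th percentile between 6.24 and 7.13 across samples, and Col12a1 in Ras controls was above it in 0 of 3 replicates. E4f1 itself read 6.74, 6.08 and 6.09 in Ras knockout cells, above that percentile in 1 of 3, against 8.70, 8.23 and 7.95 in Ras controls (log2 difference -1.99 ± 0.16, standard error; adjusted p = 0.000438). In p53-/- cells it read 6.57, 6.69 and 6.52 in knockout cells, above the random probes' 95th percentile in 0 of 3, against 7.95, 7.62 and 8.05 in controls. With that percentile as the knockout level, the means differed by 2.17-fold. The fitted fall was 2.42-fold, with a 95% interval of 1.87 to 3.13 (adjusted p = 0.0759). Of the gene's 6 probes 1 was called lower (-1.38, adjusted p = 0.0269). The fibroblast identity could be checked on 2 of 8 markers. S100a4 averaged 15.50 in Ras controls and 13.66 in p53-/- controls, and Pdgfra read 11.72, 8.61 and 8.41 in Ras controls and 8.47, 9.00 and 9.01 in p53-/- controls, with only Ras control A standing high. The labels give the replicates as separate, without saying whether they came from different embryos.

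In Ha-RasV12 cells, E4F1 loss was accompanied by more RNA for 8 of the 18 genes and less for 1. Bgn, Fn1, Dcn, Tnc, Thbs1, Fbln1, Fbln2 and Col4a1 were called higher, between 2.02-fold and 7.36-fold, and Col3a1 was called lower, 3.98-fold. Over all 42853 genes and transcripts on the array, 1.3% were called higher and 0.784% lower (2.09% in either direction), and among the 3667 genes of the authors' lists 23.3% were called. The median log2 difference was 1.17 for the 18 genes, -0.01 for all genes and transcripts, and 0.44 for the named genes. Nothing is read from these counts, since the same contrast chose the genes.

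Of the 3 leucine-rich proteoglycans 2 were called higher. Bgn encodes biglycan and read 15.42, 15.56 and 15.15 in Ras knockout cells (A, B and C), against 14.05, 12.95 and 13.37 in Ras controls. The groups did not overlap, and the gain of 1.92 ± 0.22 log2 units (standard error, n = 3, adjusted p = 0.00236) is 3.78-fold. Dcn, which encodes decorin, read 13.00, 13.43 and 12.08 in Ras knockout cells, against 11.87, 9.10 and 8.91 in Ras controls. The knockout values lay close together while control A stood well above controls B and C, so that the difference was 1.13 in replicate A, 4.33 in B and 3.17 in C (mean 2.88 ± 0.46, 7.36-fold, adjusted p = 0.0133). Lum encodes lumican and read 9.32, 10.56 and 9.81 in Ras knockout cells, against 10.02, 7.95 and 7.60 in Ras controls. Replicate A went the other way from B and C, and the mean difference of 1.37 was not called (adjusted p = 0.246).

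Adhesive and matricellular glycoproteins were called higher for 3 of 5 genes. Fn1, fibronectin, read 15.56, 15.56 and 14.82 in Ras knockout cells, against 13.97, 13.33 and 13.66 in Ras controls, without overlap (1.66 ± 0.21, 3.16-fold, adjusted p = 0.00421). Tnc, tenascin-C, read 13.81, 14.16 and 13.65 in Ras knockout cells, against 13.06, 9.99 and 10.14 in Ras controls. As for Dcn, control A was the high one, and the differences were 0.75, 4.17 and 3.51 (mean 2.81 ± 0.50, 7.01-fold, adjusted p = 0.0225). Thbs1, thrombospondin-1, read 12.07, 11.95 and 11.66 in Ras knockout cells, against 11.39, 9.69 and 9.40 in Ras controls (1.74 ± 0.30, 3.33-fold, adjusted p = 0.0187). Postn, periostin, read 9.80, 11.63 and 9.15 in Ras knockout cells, against 6.29, 8.69 and 8.99 in Ras controls, 2 of which were above the random probes' 95th percentile. Its differences of 3.50, 2.93 and 0.16 averaged 2.20 and were not called (adjusted p = 0.0576), with replicate C almost level. Mgp, matrix Gla protein, an inhibitor of calcification, read 13.74, 12.23 and 13.87 in Ras knockout cells, against 15.52, 14.09 and 13.78 in Ras controls. It averaged -1.18 (adjusted p = 0.145) and, like Postn, moved in replicates A and B with little difference in C.

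Of the 2 fibril-forming collagens Col3a1 was called. Col3a1, the chain of type III collagen, read 12.38, 13.14 and 13.44 in Ras knockout cells, against 15.34, 14.85 and 14.76 in Ras controls. Every control lay above every knockout value, and the fall of -1.99 ± 0.27 log2 units (adjusted p = 0.00605) was seen with all 3 of its probes (-1.99, -1.75 and -1.63). Col1a1, a chain of type I collagen, read 9.83, 10.97 and 9.68 in Ras knockout cells, against 9.17, 9.46 and 9.56 in Ras controls. The groups were just apart, and the difference of 0.76 ± 0.23 was not called (adjusted p = 0.155). Of the basement membrane collagens, Col4a1 read 13.50, 12.80 and 12.63 in Ras knockout cells, against 12.71, 11.66 and 11.52 in Ras controls. The groups overlapped through control A, yet each replicate pair differed by 0.79 to 1.13 (1.01 ± 0.19, 2.02-fold, adjusted p = 0.0258). Col4a5, a type IV chain found in a narrower range of basement membranes, averaged 0.44 (adjusted p = 0.18).

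None of the 4 other collagens was called. Col6a1 and Col6a2, chains of the beaded microfilaments of type VI collagen, averaged 0.81 (adjusted p = 0.165) and 0.70 (adjusted p = 0.428). Their replicates ran in parallel, with 0.97, 1.501 and -0.03 for Col6a1 and 0.41, 2.02 and -0.35 for Col6a2, so that replicate B alone held most of both means. Col8a1, a short-chain collagen, averaged 0.69 (adjusted p = 0.169) and Col12a1, a fibril-associated collagen near background, 0.59 (adjusted p = 0.133). Both elastic fibre proteins were called higher. Fbln1, fibulin-1, read 12.19, 12.06 and 10.94 in Ras knockout cells, against 10.91, 9.92 and 10.07 in Ras controls (1.43 ± 0.23, 2.70-fold, adjusted p = 0.0126). Fbln2, fibulin-2, read 14.15, 14.43 and 13.09 in Ras knockout cells, against 13.46, 12.05 and 12.17 in Ras controls, overlapping, with 1.33 ± 0.28 and an adjusted p of 0.0449.

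**Figure D1:**
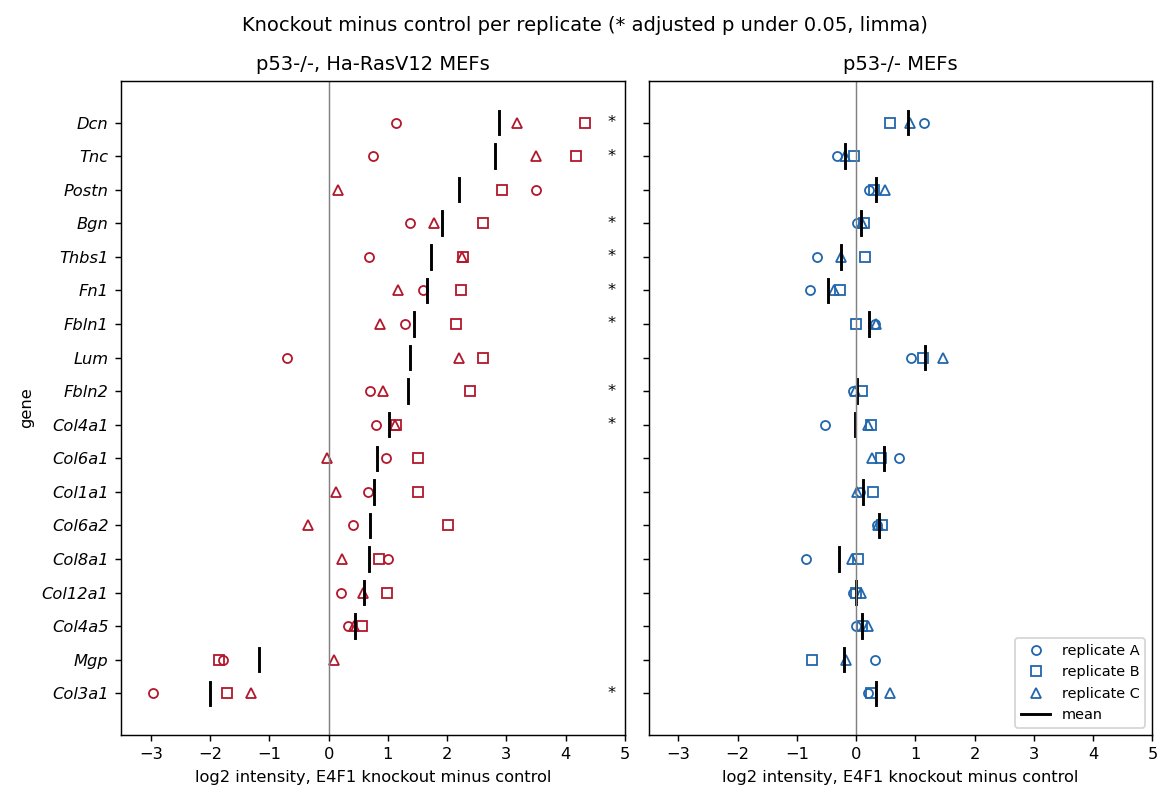
Difference in log2 intensity between knockout and control for each replicate (circle A, square B, triangle C) of the 18 genes, with Ha-RasV12 MEFs on the left and p53-/- MEFs on the right. Black bars are means of 3 replicates and stars mark genes called by limma; the Ha-RasV12 points spread widely, as for Dcn from 1.13 to 4.33, while most p53-/- points lie near 0.

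These calls used 1 spread for both backgrounds. The standard deviation of the 3 replicate differences had a median over the 18 genes of 0.819 in Ha-RasV12 cells and 0.196 in p53-/- cells, against 0.319 and 0.205 over all probes. When Ha-RasV12 cells were fitted alone, 0 of the 18 genes were called (adjusted p from 0.0921 to 0.768), where 0.189% of all genes and transcripts were called; 16 had an unadjusted p under 0.05, against 7.33% of all. Leaving out replicate A gave 10 genes higher and 1 lower, leaving out B gave 5 and 1 with Col4a1, Thbs1 and Tnc lost, and leaving out C gave 5 and 2 with Col4a1, Dcn, Fbln2, Thbs1 and Tnc lost. Fitted as separate samples without the pairing of knockout and control on their arrays, 4 were higher and 1 lower.

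The promoters of 4 genes are shown because these genes had the called opposite responses (Bgn and Col3a1), the 7.01-fold gain (Tnc) and the deepest loss with Ha-RasV12 described below (Postn). RefSeq's promoter table (GRCm38.p6) held 11 of the 18 genes, and the 250 bases before the most upstream listed start were read. Capitals mark matches on either strand to the TATA box, TATAAA. Capitals also mark matches to the TEAD motif, spelled GGAATG. The AP-1 motif TGANTCA was searched in the same way. So was the ATF core, for which the letters TGACGT were used, and no matches overlapped.
Bgn, chrX:73483351-73483600, plus strand: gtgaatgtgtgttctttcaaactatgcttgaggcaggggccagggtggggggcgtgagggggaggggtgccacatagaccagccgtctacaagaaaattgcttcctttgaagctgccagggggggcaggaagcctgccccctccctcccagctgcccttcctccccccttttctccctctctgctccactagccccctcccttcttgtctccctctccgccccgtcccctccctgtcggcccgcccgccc
Col3a1, chr1:45311288-45311537, plus strand: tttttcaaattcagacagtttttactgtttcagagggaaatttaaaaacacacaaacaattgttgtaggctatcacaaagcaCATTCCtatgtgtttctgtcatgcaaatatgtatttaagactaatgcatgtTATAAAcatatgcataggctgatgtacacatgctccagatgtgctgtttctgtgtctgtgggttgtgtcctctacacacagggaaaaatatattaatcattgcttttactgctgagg
Tnc, chr4:64047016-64047265, minus strand: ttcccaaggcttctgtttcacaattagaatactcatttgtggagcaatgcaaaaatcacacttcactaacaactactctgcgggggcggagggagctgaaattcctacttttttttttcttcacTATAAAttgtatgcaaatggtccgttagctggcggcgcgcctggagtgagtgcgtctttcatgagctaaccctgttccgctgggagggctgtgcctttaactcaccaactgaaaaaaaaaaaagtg
Postn, chr3:54359017-54359266, plus strand: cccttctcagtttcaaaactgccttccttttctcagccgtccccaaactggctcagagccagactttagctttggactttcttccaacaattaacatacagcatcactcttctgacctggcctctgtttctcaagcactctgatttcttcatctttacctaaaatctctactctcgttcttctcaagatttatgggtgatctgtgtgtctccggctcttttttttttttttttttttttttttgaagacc
The Bgn window was 64.4% G and C with 0 matches, and the Col3a1 window was 35.2% G and C with a TEAD match beginning 168 bases and a TATA box 117 bases before the start. Tnc had a TATA box at 126 bases and Postn had 0 matches. Among the 11 genes a TATA box was found for 2, a TEAD match for 1, an AP-1 match for 1 (Col6a1) and an ATF core for 0. Among all 32851 RefSeq promoters in that build 12.4%, 12.6%, 6.75% and 6.47% held these motifs in the same window.

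In p53-/- cells without the oncogene, 0 of the 18 genes were called after E4F1 loss, where 0.0163% of all genes and transcripts were called (0.00233% higher and 0.014% lower). By unadjusted p, 1 of the 18 was under 0.05, against 2.55% of all genes and transcripts, and 12 averaged higher and 6 lower (median 0.09, against 0.00 for all genes and transcripts). The authors' lists also hold 3 of the genes for this background. This same contrast chose them, so nothing is read from their standing out. Lum read 12.91, 11.10 and 11.74 in p53-/- knockout cells, against 11.99, 9.97 and 10.29 in p53-/- controls. The groups overlapped, but each replicate was higher by 0.92 to 1.46 (mean 1.17 ± 0.50, unadjusted p = 0.0448). Calls and standard errors in this background also use the 1 spread of both backgrounds. For Lum the standard deviation of the 3 differences was 0.27 in p53-/- cells and 1.80 in Ha-RasV12 cells. With p53-/- cells fitted alone Lum was called (adjusted p = 0.0245), where 0.119% of all genes and transcripts were. Dcn read 12.59, 12.04 and 12.54 in p53-/- knockout cells, against 11.45, 11.48 and 11.63 in p53-/- controls (0.87 ± 0.46, unadjusted p = 0.0879). Fn1 read 14.33, 14.66 and 14.62 in p53-/- knockout cells, against 15.11, 14.94 and 14.98 in p53-/- controls, in the opposite direction (-0.47 ± 0.21, unadjusted p = 0.0504). Col3a1 differed by 0.34 ± 0.27 (unadjusted p = 0.241), and the remaining 14 genes lay between -0.30 (Col8a1) and 0.47 (Col6a1).

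The test of the difference between the backgrounds, Ha-RasV12 minus p53-/-, called 3 of the 18 genes, where 0.399% of all genes and transcripts were called (0.287% higher and 0.112% lower) and 4.45% of the 3667 listed genes. It contains the Ha-RasV12 comparison that chose the 18 genes, so nothing is read from the count. Fn1 differed by 2.13 ± 0.30 (adjusted p = 0.0188), with 1.59, 2.23 and 1.16 in Ha-RasV12 replicates and -0.78, -0.27 and -0.37 in p53-/- replicates. Bgn differed by 1.84 ± 0.31 (adjusted p = 0.0443), with 1.37, 2.61 and 1.77 in Ha-RasV12 replicates and 0.02, 0.12 and 0.10 in p53-/- replicates. Col3a1 differed by -2.34 ± 0.39 (adjusted p = 0.0421), with -2.96, -1.71 and -1.31 in Ha-RasV12 replicates and 0.19, 0.26 and 0.57 in p53-/- replicates. Each of those p53-/- values averages 2 dye-swapped arrays, which lay 2.40, 1.38 and 1.38 log2 units apart for Col3a1. The median gap between such arrays was 0.43 over the 18 genes and all replicates. All 3 calls were lost when any 1 p53-/- replicate was left out, which leaves 2 replicates in that arm. Tnc had a larger difference, 3.00 with a 95% interval of 1.40 to 4.59, and was not called (adjusted p = 0.168). Lum differed by 0.20 with an interval of -1.40 to 1.81, which is too wide to tell its responses apart or to call them alike.

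Set against p53-/- controls, Ras controls had less RNA for most of these genes. The limma test called 9 of 18 lower and 0 higher (13 and 0 at an unadjusted p under 0.05), where 2.53% of all genes and transcripts were called lower, 1.19% higher and 3.72% in either direction, and 16.4% had an unadjusted p under 0.05. The median log2 difference was -1.43 for the 18 genes, -0.12 for all genes and transcripts and -0.08 for the named genes. The Ras control samples are shared with the knockout comparison that chose the genes, so these counts are not independent of that choice. Backgrounds were hybridised on different arrays, and background and array set cannot be told apart.

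The largest losses were in the matricellular proteins. Postn read 6.29, 8.69 and 8.99 in Ras controls, against 13.99, 13.99 and 14.43 in p53-/- controls. This loss of -6.15 ± 0.65 log2 units is 70.8-fold (adjusted p = 0.000132), and every one of the gene's 6 probes was called lower. Thbs1 read 11.39, 9.69 and 9.40 in Ras controls, against 14.40, 14.20 and 14.47 in p53-/- controls (-4.20 ± 0.39, 18.4-fold, adjusted p = 5.44e-05, with 9 of 9 probes called). Col1a1 read 9.17, 9.46 and 9.56 in Ras controls, against 12.96, 12.42 and 12.61 in p53-/- controls (-3.27 ± 0.30, 9.62-fold, adjusted p = 4.5e-05). These 3 calls were kept under all 14 alternatives tried. Tnc averaged 11.06 in Ras controls and 13.60 in p53-/- controls (adjusted p = 0.0312), but control A at 13.06 lay near the p53-/- values of 13.21 to 13.79 while B and C were at 9.99 and 10.14.

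Smaller called losses in Ras controls were those of Fbln2 (-2.00, adjusted p = 0.00906), Col6a2 (-1.55, 0.0498), Col6a1 (-1.37, 0.0364), Fn1 (-1.35, 0.0055) and Bgn (-1.27, 0.0104). Col6a1 and Col6a2 were lost under 7 and 8 of the 14 alternatives, quantile normalization and median centring among them, Bgn under 5 and Tnc under 6. Dcn (-1.56) and Lum (-2.23) were not called, and for Dcn the Ras control A value of 11.87 was above all p53-/- controls, at 11.45 to 11.63. Col12a1 was at least 1.72-fold lower, bounded by the random probes (adjusted p = 0.0506). Col3a1 could not be given a direction: its brightest probe was 0.52 higher (adjusted p = 0.346) and its other 2 probes were 1.00 (adjusted p = 0.0628) and 1.15 (adjusted p = 0.0429) lower.

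**Figure D2:**
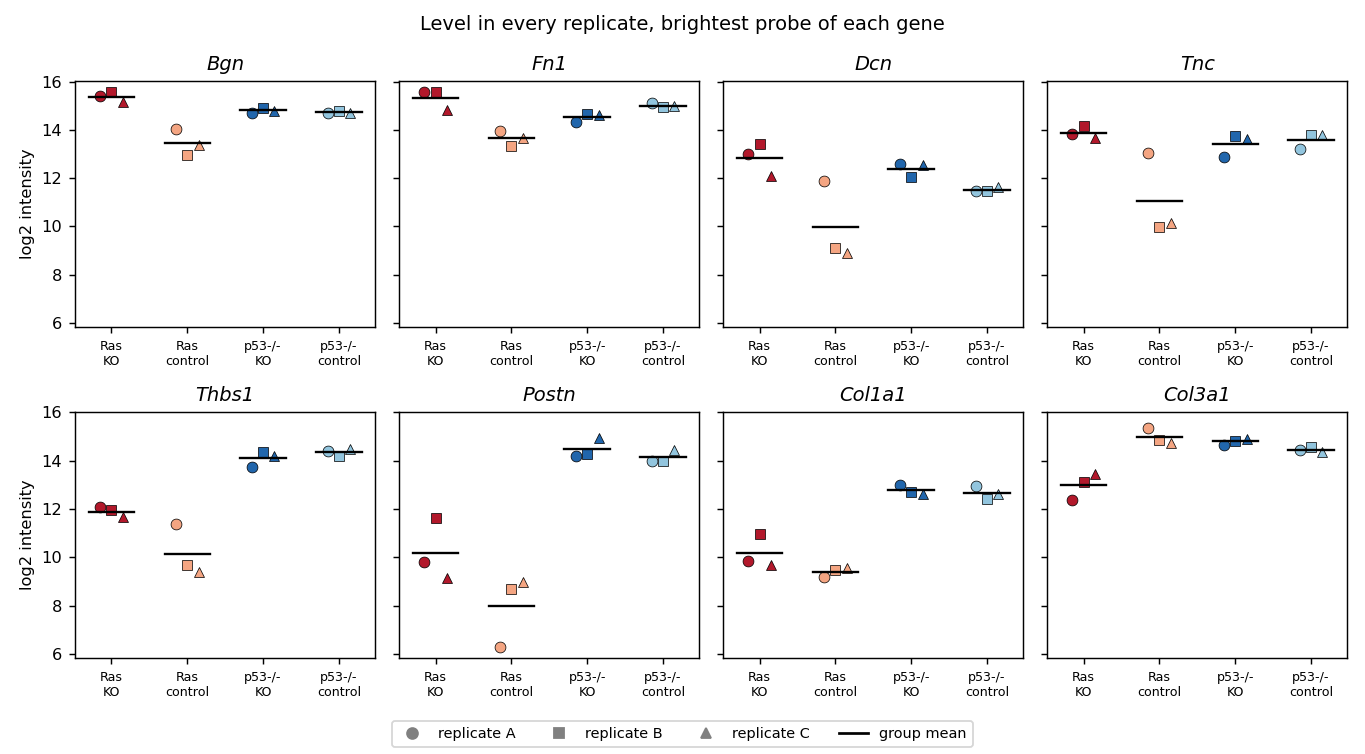
Log2 intensity of 8 genes in every replicate, with Ras knockout, Ras control, p53-/- knockout and p53-/- control from left to right and bars at group means. In Ras knockout cells every Bgn value lies above all p53-/- values and every Dcn value above all p53-/- controls, while Fn1 and Tnc overlap the p53-/- values. Thbs1, Postn and Col1a1 lie between Ras controls and p53-/- cells, and Col3a1 is lowest in Ras knockout cells.

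The same comparison between E4F1 knockout cells, added after the data were seen, uses none of the control samples but shares the Ras knockout samples with the comparison that chose the genes, so its counts are not independent of that choice either. Here 4 of the 18 genes were called lower in Ras knockout than in p53-/- knockout cells and 0 higher by limma (8 and 3 at an unadjusted p under 0.05), where 2.46% of all genes and transcripts were called lower, 1.21% higher and 3.67% in either direction, and 17.8% had an unadjusted p under 0.05. The median was -0.63 for the 18 genes and -0.13 for all genes and transcripts. The lower genes were Postn (-4.28 ± 0.65, 19.4-fold, adjusted p = 0.00247), Col1a1 (-2.62 ± 0.30, 6.14-fold, adjusted p = 0.000263), Thbs1 (-2.21 ± 0.39, 4.61-fold, adjusted p = 0.00718) and Col3a1 (-1.81 ± 0.26, 3.51-fold, adjusted p = 0.00156). Postn at 9.80, 11.63 and 9.15 in Ras knockout cells remained far below the 14.20, 14.29 and 14.93 of p53-/- knockout cells. Col3a1 read 12.38, 13.14 and 13.44 in Ras knockout cells, against 14.65, 14.83 and 14.92 in p53-/- knockout cells, and all 3 of its probes were called lower. Postn, Col1a1 and Col3a1 kept their calls under all 14 alternatives and Thbs1 under 12, losing it without p53-/- replicate B or C.

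Other genes averaged at or above the p53-/- knockout level in Ras knockout cells, without a call. Fn1 averaged 15.31 ± 0.43 in Ras knockout cells and 14.54 ± 0.18 in p53-/- knockout cells (SD, n = 3 each; difference 0.78, 95% interval 0.26 to 1.29, adjusted p = 0.0964), and it was called higher, with Fbln1, once arrays were centred on their medians. Bgn averaged 15.38 ± 0.21 in Ras knockout cells and 14.81 ± 0.10 in p53-/- knockout cells (0.57, interval 0.04 to 1.10, adjusted p = 0.247), though 3 of its 6 probes were lower. Dcn differed by 0.45 (interval -0.83 to 1.72) and Tnc by 0.46 (interval -0.83 to 1.75), intervals that do not settle either a gain or a loss. Fbln2, Col6a1, Col6a2 and Lum remained lower on average, by 0.68, 1.03, 1.24 and 2.02 log2 units, without a call.

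**Figure D3:**
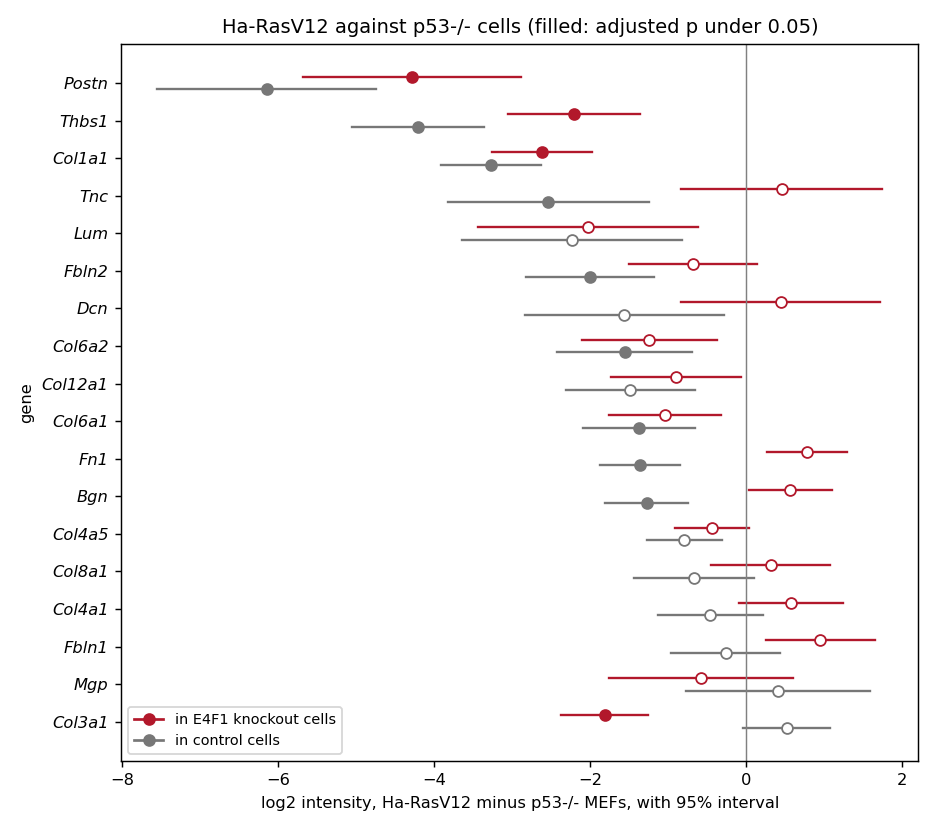
Log2 difference between Ha-RasV12 and p53-/- MEFs for the 18 genes, among E4F1 knockout cells (red) and among control cells (grey), with 95% intervals from limma; filled points were called. In control cells 9 genes are called below 0, and in knockout cells Postn, Thbs1, Col1a1 and Col3a1.

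A gene is covered by several probes, 84 in all for the 18 genes, of which 70 are in at least 1 of the authors' lists. The remaining 14 probes of the same genes did not enter those lists, and in Ha-RasV12 cells 12 of them were higher and 2 lower after E4F1 loss (median 0.41), with 0 called, where 2.31% of all probes were called. Probes absent from lists of changed probes were chosen by that contrast, so nothing is read from this count. They were dim, at a median log2 intensity of 8.08. In Ras controls against p53-/- controls 13 of these 14 were lower, 3 of them called, against 3.72% of all probes. Several are probes of the same gene, and the called Col6a2 probe is the one that gave its result above. The Ras control samples are shared with the comparison behind the lists, so nothing is read from this count either. Among listed genes the probes of Dcn ran from 2.72 to 2.88 and those of Postn from 1.00 to 2.20 after E4F1 loss in Ha-RasV12 cells, while 1 of the 6 Bgn probes was at -0.23 against 2.20 for the highest. For Bgn and Fn1 the loss in Ras controls was larger with other probes (to -2.56 and -2.50) than with the brightest (-1.27 and -1.35). With each gene's dimmest probe it was smaller and not called (-0.01 and -0.76).

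**Figure D4:**
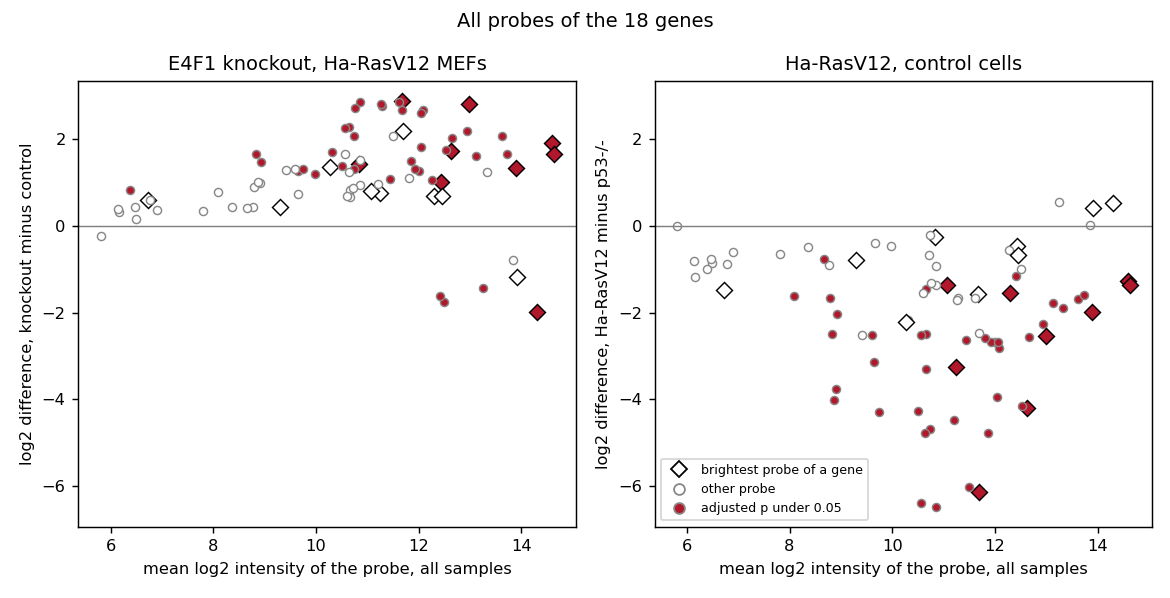
Log2 difference of each of the 84 probes against its mean log2 intensity, for E4F1 knockout minus control in Ha-RasV12 MEFs (left) and for Ha-RasV12 minus p53-/- in control cells (right). Diamonds are each gene's brightest probe and red marks an adjusted p under 0.05; the probes below 0 on the left are those of Col3a1 and Mgp and a dim one of Bgn.

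Other matrix genes of fixed lists were counted where the authors' lists or RefSeq named them. The authors' lists hold probes that changed with E4F1 loss, so nothing is read from the counts for that contrast. There 2.09% of all genes and transcripts and 23.3% of the listed genes were called. The share of all genes and transcripts with an unadjusted p under 0.05 was not counted for Ha-RasV12 cells in the fit of both backgrounds. Of 20 other matricellular genes 8 were named, and 4 were called higher in Ras knockout cells against Ras controls with 0 lower (4 and 3 at an unadjusted p under 0.05). These were Igfbp7 (3.37, adjusted p = 4.92e-05), an insulin-like growth factor binding protein, and the CCN family members Ctgf (2.05, 0.00452), Wisp1 (1.80, 0.0036) and Cyr61 (1.66, 0.00188). The 3 lower without a call were Nov (-2.10, adjusted p = 0.175), Smoc2 (-3.04, 0.221) and Smoc1 (-0.74, 0.317). In Ras controls against p53-/- controls 5 of the 8 were called lower, where 2.53% of all genes and transcripts were called lower and 14.9% of the listed genes were called in either direction, with Igfbp7 at -4.57 and Wisp1 at -3.72. Of 26 collagen processing genes 8 were named, and after E4F1 loss in Ha-RasV12 cells 2 were called higher and 2 lower (6 and 2 at an unadjusted p under 0.05). Adamts2, which trims the procollagen N-terminus, rose by 1.19 (adjusted p = 0.0154) and the collagen chaperone Serpinh1 by 1.04 (0.0238), while the procollagen C-proteinase enhancer Pcolce2 fell by 2.08 (0.0457) and the lysyl hydroxylase Plod1 by 0.96 (0.0464). In Ras controls 4 of these 8 were called lower than in p53-/- controls and 0 higher, against the same shares. At an unadjusted p under 0.05 there were 7 and 0, where 16.4% of all genes and transcripts were under it. The Ras control samples are shared with the comparison behind the authors' lists, so neither list's count in Ras controls is independent of that choice.

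Of 4 other lysyl oxidases 3 were named, and of 14 other elastic fibre genes 3. After E4F1 loss in Ha-RasV12 cells limma called 0 of either, with 2 and 3 at an unadjusted p under 0.05. Nothing is read from these counts either. Aspn, asporin, the 1 named gene of 8 other leucine-rich proteoglycans, fell by 2.75 (adjusted p = 0.0233), opposite to Bgn and Dcn. In Ras controls against p53-/- controls 2 of the 3 elastic fibre genes were called higher (Efemp1 and Emilin2) and 1 lower (Mfap4). Of the 3 lysyl oxidases 0 were called higher and 1 lower, where 1.19% and 2.53% of all genes and transcripts were. These counts are not independent of the authors' lists either. The probes of Col18a1, a collagen named by RefSeq alone, were higher in Ras controls by 3.01, 2.62 and 1.92 (limma adjusted p = 0.00935, 0.0124 and 0.0253). In p53-/- cells limma called 0 of the 30 named genes of all fixed lists after E4F1 loss, and 5 were lower at an unadjusted p under 0.05, Ctgf, Igfbp7, Plod1 and Wisp1 among them. Over all genes and transcripts 0.0163% were called and 2.55% had an unadjusted p under 0.05, in either direction.

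The sum of the smooth muscle markers was higher after E4F1 loss in Ha-RasV12 cells and lower after it in p53-/- cells. The summed linear intensity of the 4 named of 5 markers was 45689.7 to 61571.8 in Ras knockout cells and 5087.21 to 11510.6 in Ras controls, and 42042.1 to 52590.1 in p53-/- knockout cells and 58605.4 to 66238 in p53-/- controls. Acta2 and Tagln made up the sum (2.73 and 2.82 higher in Ras knockout than in Ras control cells), while Des and Myh11 were above the random probes' 95th percentile in 0 of 3 replicates of either Ha-RasV12 group. The 2 named fibroblast markers summed to 1812.83 to 5607.46 in Ras knockout cells and 40745.8 to 59679.6 in Ras controls, carried by S100a4, which fell by 4.19 (adjusted p = 0.00258). Pdgfra, the other marker, differed by -1.81 in replicate A but by 1.83 in B and 1.25 in C. Of the chondrocyte markers Sox9, 1 of 5, read 388.122 to 1710.95 in Ras knockout cells and 97.5925 to 568.124 in Ras controls. Sums for 3 of 5 adipocyte markers were 2963.96 to 4636.96 in Ras knockout cells and 3309.82 to 13610.5 in Ras controls. They followed Fabp4, which differed by -1.87, -0.33 and -0.76 in replicates A, B and C. Lpl (3.04, 0.63 and 2.01) and Pparg (0.55, 1.61 and 0.50) were higher in every replicate. Sums for 2 of 5 epithelial markers were 1547.4 to 2814.97 in Ras knockout cells and 2645.01 to 18874.3 in Ras controls. The high end came from Krt19, at 14.18 in Ras control A against 11.39 and 11.20 in B and C. Epcam was higher in every Ras knockout replicate, by 1.02, 0.62 and 0.93. The 1 named osteoblast marker and the 2 named macrophage markers stayed at or below 343.128 in all Ha-RasV12 samples, and 0 of 5 endothelial markers were named. The part of other cell types in the changes of the matrix genes was not tested.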

How the data were processed

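The deposited values are linear normalized intensities of 24 samples on 12 two-colour arrays, and log2 was taken here. Per the labels the replicates were dye-swapped. The submitters' processing notes name limma; version, background correction and normalization are not stated there or in the files. The authors' deposited tables hold log2 fold changes, t and SAM scores, and p-values and q-values. Their log2 values equalled the group differences of the intensities. From 137488 probes, 5000 random-sequence probes were left out of the fit. Probes took the symbol that the tables give their transcript, else RefSeq's.

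limma 3.58.1 in R 4.3.3 (lmFit, eBayes) was fitted to 6 replicate log ratios, knockout minus control within arrays and averaged over both dyes, and to 12 sample means for Ha-RasV12 against p53-/-. The pairing comes from the shared arrays; same-letter samples correlated with r of 0.594 to 0.632 in p53-/- cells and -0.06 to 0.49 in Ha-RasV12 cells in their deviations from group means. Genes were named in the text by a rule: E4f1, members called or in the authors' limma tables, the brightest uncalled member per class, and up to 3 called genes of other lists. Other named genes, the fourth CCN or matricellular gene among them, were chosen after their values were seen. Results of 2 further lists are not reported here. Members and lists were chosen with earlier results of these data known. The alternatives were replicates left out, other blocks, dyes, scalings, filters and probe choices. The number of arrays limits the precision. P-values measure the spread between replicates only. Figures used Python 3.11.15 with matplotlib 3.10.9.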

Additional observations from a re-analysis of the deposited data

Results flagged for a closer look

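Between the 2 backgrounds, the effect of E4F1 loss differed by the test of the difference itself for 3 genes. The difference, Ha-RasV12 minus p53-/- cells in log2 units, was 1.84 for Bgn, -2.34 for Col3a1 and 2.13 for Fn1. For Tnc every replicate rose in Ha-RasV12 cells and every replicate was lower in p53-/- cells, by 0.04 to 0.33, and the difference of 3.00 was tested and not called (adjusted p = 0.168).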

How the results depend on the processing

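Counts are of the 18 matrix genes called, higher then lower, and then of all genes and transcripts. For E4F1 loss in Ha-RasV12 cells (8 and 1, of 895) they were 4 and 1 (293) with no replicate block, that is without the pairing on arrays, 15 and 2 (3003) with each array as its own log ratio, 0 and 0 (81) with each background fitted alone, 8 and 2 with the probe of smallest p, 11 and 2 (1909) in the authors' deposited limma table, and 16 and 2 (3515) in the authors' deposited SAM list. Leaving out 1 replicate gave 5 to 10 higher, 1 to 2 lower and 535 to 1925 in all. For E4F1 loss in p53-/- cells (0 and 0, of 7 by limma) they were 43 in all with each array on its own, 1 and 0 (51) fitted alone, 4 in all with the mean of probes, 12 with the probe of smallest p, 2 and 1 (245) in the authors' deposited limma table and 2 and 1 (484) in their SAM list; leaving out a replicate gave 0 to 0. For the difference between backgrounds (2 and 1, of 171) they were 1 and 1 (43) with no replicate block, 8 and 1 (1006) with each array on its own, 1 and 0 with the dimmest probes left out, 1 and 0 (105) with the mean of probes, and 0 to 6, 0 to 1 and 19 to 756 with 1 replicate left out.

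For Ha-RasV12 against p53-/- control cells (0 and 9, of 1593) they were 1 higher with Cy3 alone, 4 lower (735) with Cy5 alone, 2599 in all with the probe of smallest p, and 0 to 0, 3 to 12 and 524 to 3418 with 1 replicate left out. Among knockout cells (0 and 4, of 1574) they were 1 higher (1044) with Cy3 alone, 2 higher after median centring, 2613 in all with the probe of smallest p, and 0 to 2, 3 to 6 and 453 to 2237 with 1 replicate left out. The replicate letter as a block gave 0 and 11 among control cells and 0 and 5 among knockout cells. As deposited, the median probe was -0.13 log2 units in Ras controls relative to p53-/- controls, and 0.04 and 0.01 after median centring and quantile normalization. The called genes that were higher went with it: 508 higher and 1085 lower as deposited, 1054 and 807 after centring, and 910 and 992 after quantile normalization among control cells, and 520 and 1054, 1341 and 712, and 1036 and 920 among knockout cells.

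Single genes kept their direction and side of the threshold in 987 results, lost a call in 70, gained one in 52 and turned in 25, none of them with a call in the fits reported. After E4F1 loss in p53-/- cells, quantile normalization turned Col12a1 to -0.0011 and Fbln2 to -0.0748, the mean of probes turned Bgn to -0.015, Col12a1 to -0.015, Col4a1 to 0.011 and Fbln2 to -0.0526, and the probe of smallest p turned Col12a1 to -0.0316, Col4a1 to 0.108, Fbln2 to -0.19 and Thbs1 to 0.45. With 1 p53-/- replicate left out, Col4a1 ran from -0.163 to 0.229, Fbln2 from -0.0336 to 0.0438, Mgp from -0.462 to 0.0735 and Col12a1 from -0.0325 to 0.0356. For Ha-RasV12 against p53-/- control cells Col3a1 turned to -0.29 with Cy5 alone, -0.54 with the mean of probes and -1.15 with the probe of smallest p, and Mgp ran from -0.122 (without Ha-RasV12 replicate A) to 0.75 with 1 replicate left out. Among knockout cells Bgn turned to -0.0223 with the mean of probes and -0.61 with the probe of smallest p, whose mean log2 intensity of 5.81 is below the random probes' 95th percentile, and Col8a1 ran from -0.0707 (without Ha-RasV12 replicate A) to 0.724. For the difference between backgrounds, leaving out 1 replicate gave -0.0028 to 0.762 for Col6a1, -0.352 to 0.833 for Col6a2 and -0.414 to 1.24 for Lum, the low ends without Ha-RasV12 replicate B, and Lum was at -0.213 without C. Where no construction of the alternative shows it, the cause was not tested. Signal near the random probes limits Col12a1 and Postn in Ras controls and E4f1 in both knockout groups.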
